A study of Mus musculus with 20 samples.

Results

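The 9 genes described here encode TNF, IL-6, the p40 subunit shared by IL-12 and IL-23, both subunits of IL-27, IL-15, IL-10, CSF-1 and TGF-β1. They were picked by symbol (Tnf, Il6, Il12b, Il27, Ebi3, Il15, Il10, Csf1, Tgfb1), with earlier results of these data known, from the 56941 gene IDs of the count table, and all 9 were found there. Poly(A)-enriched RNA was sequenced from the BV-2 line, which derives from mouse microglia and is immortalized, and from BV-2 cells labelled as knockout for RGS10, a regulator of G protein signalling. The 4 groups were knockout cells given interferon gamma (IFNγ), wild-type cells given IFNγ, knockout cells given vehicle and wild-type cells given vehicle, with 5 libraries each. IFNγ was given at 10 ng/mL, vehicle was medium alone, and both lasted 48 h. In every group replicates 1 to 3 belonged to batch 1, replicate 4 to batch 2 and replicate 5 to batch 3. How the knockout line was made, and whether it is a single clone, is not given in the sources used here. Replicates are labelled biological, without a record of separate cultures. The p-values therefore describe the spread among these libraries, and part of it may be technical.

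IFNγ binds its receptor on macrophages and microglia and signals through JAK kinases, and the cells become primed to make inflammatory cytokines. TNF, IL-6 and the IL-12 family carry much of that inflammatory signal, IL-10 and TGF-β1 restrain it, IL-15 sustains lymphocytes, and CSF-1 keeps microglia and macrophages alive. Several of these messages are short-lived and are held in check by RNA-binding proteins such as tristetraprolin.

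Promoters of some members are shown to place them in their sequence context. The 250 bases upstream of the annotated transcript start were taken from RefSeq (GRCm38.p6), whose promoter table held 6 of the 9 members. Il27, Il15 and Il10 were not in it, so their promoters could not be shown. Tnf (chr17:35202008-35202257, minus strand), Il6 (chr5:30012864-30013113, plus strand) and Ebi3 (chr17:55952373-55952622, plus strand) rose with IFNγ in both lines, and Csf1 (chr3:107760470-107760719, minus strand) answered IFNγ differently in different batches of wild-type cells. Each is written 5′ to 3′ along the gene's own strand, and capitals mark matches to the motifs listed in the next paragraph.
Tnf: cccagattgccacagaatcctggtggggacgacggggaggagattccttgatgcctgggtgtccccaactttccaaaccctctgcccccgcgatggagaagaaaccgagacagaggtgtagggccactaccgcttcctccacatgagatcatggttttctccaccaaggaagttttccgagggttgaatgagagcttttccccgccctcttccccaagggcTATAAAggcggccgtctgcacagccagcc
Il6: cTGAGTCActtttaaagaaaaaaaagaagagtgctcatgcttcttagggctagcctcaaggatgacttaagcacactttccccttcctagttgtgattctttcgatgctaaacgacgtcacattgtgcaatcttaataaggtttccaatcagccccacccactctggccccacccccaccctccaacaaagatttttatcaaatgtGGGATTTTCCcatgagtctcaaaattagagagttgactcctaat
Ebi3: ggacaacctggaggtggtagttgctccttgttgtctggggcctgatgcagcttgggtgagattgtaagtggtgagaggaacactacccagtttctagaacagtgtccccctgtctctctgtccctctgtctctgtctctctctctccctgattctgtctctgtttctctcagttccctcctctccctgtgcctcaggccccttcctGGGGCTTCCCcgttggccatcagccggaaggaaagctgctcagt
Csf1: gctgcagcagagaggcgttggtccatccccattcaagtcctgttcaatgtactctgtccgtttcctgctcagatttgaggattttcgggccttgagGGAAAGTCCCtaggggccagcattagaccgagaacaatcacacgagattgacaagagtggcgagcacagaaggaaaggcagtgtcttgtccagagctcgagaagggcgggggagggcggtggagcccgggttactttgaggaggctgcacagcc

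Both strands were searched for 5 motifs: the TATA box (TATAAA), the GAS element (TTCNNNGAA), an IRF element (GAAANNGAA), the AP-1 site (TGANTCA) and the NF-κB consensus. Tnf held a TATA box at bases −29 to −24 from its start. Il6 held an NF-κB match at −44 to −35 and an AP-1 match at −249 to −243, and Ebi3 an NF-κB match at −44 to −35. Csf1 had an NF-κB match on the opposite strand at −154 to −145, and Tgfb1 one at −140 to −131. The Il12b window held none of the 5 motifs. No match overlapped another. Of 32817 RefSeq promoter windows of the same length, 12.4% held the TATA box, 7.01% the GAS element, 7.12% the IRF element, 6.75% the AP-1 site and 7.25% the NF-κB consensus. These are matches of letters and do not show binding. Neither the GAS nor the IRF letters were found in the 6 windows, which says nothing of sites elsewhere.

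**Figure D1:**
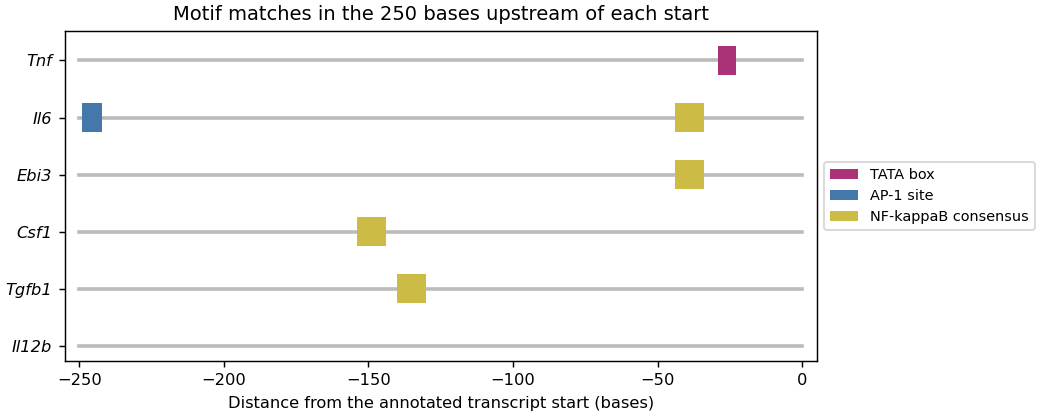
Position of motif matches in the 250 bases upstream of the annotated start of 6 cytokine genes (x axis, bases from the start; one grey line per gene; coloured boxes, matches on either strand). Il6 and Ebi3 carry an NF-κB match at the same distance, −44 to −35, Tnf has only the TATA box and Il12b has no match.

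Total counts per library ran from 15866749 to 29157740. All 15 genes of a list of microglia and macrophage markers had reads, and their summed level per library was 5720 to 8290 CPM (reads relative to the scaled library total) in knockout cells with IFNγ, 8990 to 14800 CPM in wild-type cells with IFNγ, 3580 to 4190 CPM in knockout vehicle cells and 5270 to 7680 CPM in wild-type vehicle cells. Much of that sum came from genes that macrophages share, such as Lyz2. With IFNγ, 9 of the 15 rose and 2 fell in knockout cells, and 9 rose and 4 fell in wild-type cells. Of the genes more particular to microglia, P2ry12 averaged 1.61 to 5.83 CPM and Tmem119 2.10 to 15.6 CPM by group. Cx3cr1 averaged 2.90 CPM in knockout cells with IFNγ, 1.03 CPM in wild-type cells with IFNγ, 70.6 CPM in knockout vehicle cells and 86.1 CPM in wild-type vehicle cells. Of 54 markers of 12 other cell types, 12 had no read in any library and 47 averaged under 1 CPM. The other 7 were Lck, S100a8, Csf3r, Zbtb46, Tubb3, Mbp and Pecam1. Among them, Zbtb46 averaged up to 16 CPM and Csf3r up to 16.3 CPM by group, and Pecam1, S100a8 and Tubb3 rose with IFNγ in both lines. Of 2 tested oligodendrocyte markers, 1 fell with IFNγ in knockout cells and 0 in wild-type cells. The part of these genes in the results was not tested. Under vehicle, Rgs10 stood at 28.2 ± 4.56 CPM in knockout cells and 63.0 ± 6.61 CPM in wild-type cells (mean ± SD, n = 5 each), so its transcript was lower but present in the libraries labelled knockout. Under IFNγ it stood at 24.4 ± 14.7 CPM in knockout cells and 29.6 ± 11.7 CPM in wild-type cells (SD, n = 5 each), a difference of −0.33 ± 0.17 log2 (± SE, edgeR adjusted p = 0.13). The IFNγ libraries of batches 2 and 3 stood apart from the others. The nuclear RNA Malat1 was at 1446 and 1004 CPM of plain totals there in knockout cells and at 1514 and 955 CPM in wild-type cells, against 51.4 to 386 CPM in the other 16 libraries. In bulk RNA a change in the RNA per cell and a change in the share of cells that make it cannot be told apart.

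With IFNγ, 7 of the 8 cytokine genes that could be tested rose in knockout cells and 6 of 8 in wild-type cells, and none fell in either line. Tests were quasi-likelihood tests in edgeR, with p-values adjusted (Benjamini-Hochberg) over all tested genes. An adjusted p under 0.05 made a call, and a gene is said to rise, fall or be higher or lower by such a call. Over all 13755 tested genes, the share called in either direction was 43.2% in knockout cells and 58.9% in wild-type cells. The median log2 change of the 8 cytokine genes was 1.49 in knockout cells and 1.61 in wild-type cells, beside −0.02 and 0.01 over all tested genes. Il10 was the tested member not called in knockout cells, and Il15 and Csf1 were those not called in wild-type cells. Il12b did not pass the filter on low counts. Groups did not overlap for 5 members in knockout cells (Tnf, Il6, Il27, Csf1, Tgfb1) and 4 in wild-type cells (Tnf, Il27, Il10, Tgfb1), where 27.6% of all tested genes did not overlap in knockout cells and 36.2% in wild-type cells. For Tgfb1 in wild-type cells this rested on the scaling of the library totals, as given below.

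Between the lines, the members were called about as often as all genes were. Under IFNγ, Il15 and Tgfb1 were higher and Il10 was lower in knockout than in wild-type cells, 3 of 8, where 39.0% of all tested genes were called. Under vehicle, Il10 and Csf1 were lower in knockout cells, 2 of 8, where 27.3% of all genes were called. No member was called for a difference between the IFNγ responses of the lines (6.50% of all genes were). In that comparison 1 member, Il15, had an unadjusted p under 0.05 in edgeR, and DESeq2 and limma-voom also called 0 members.

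**Figure D2:**
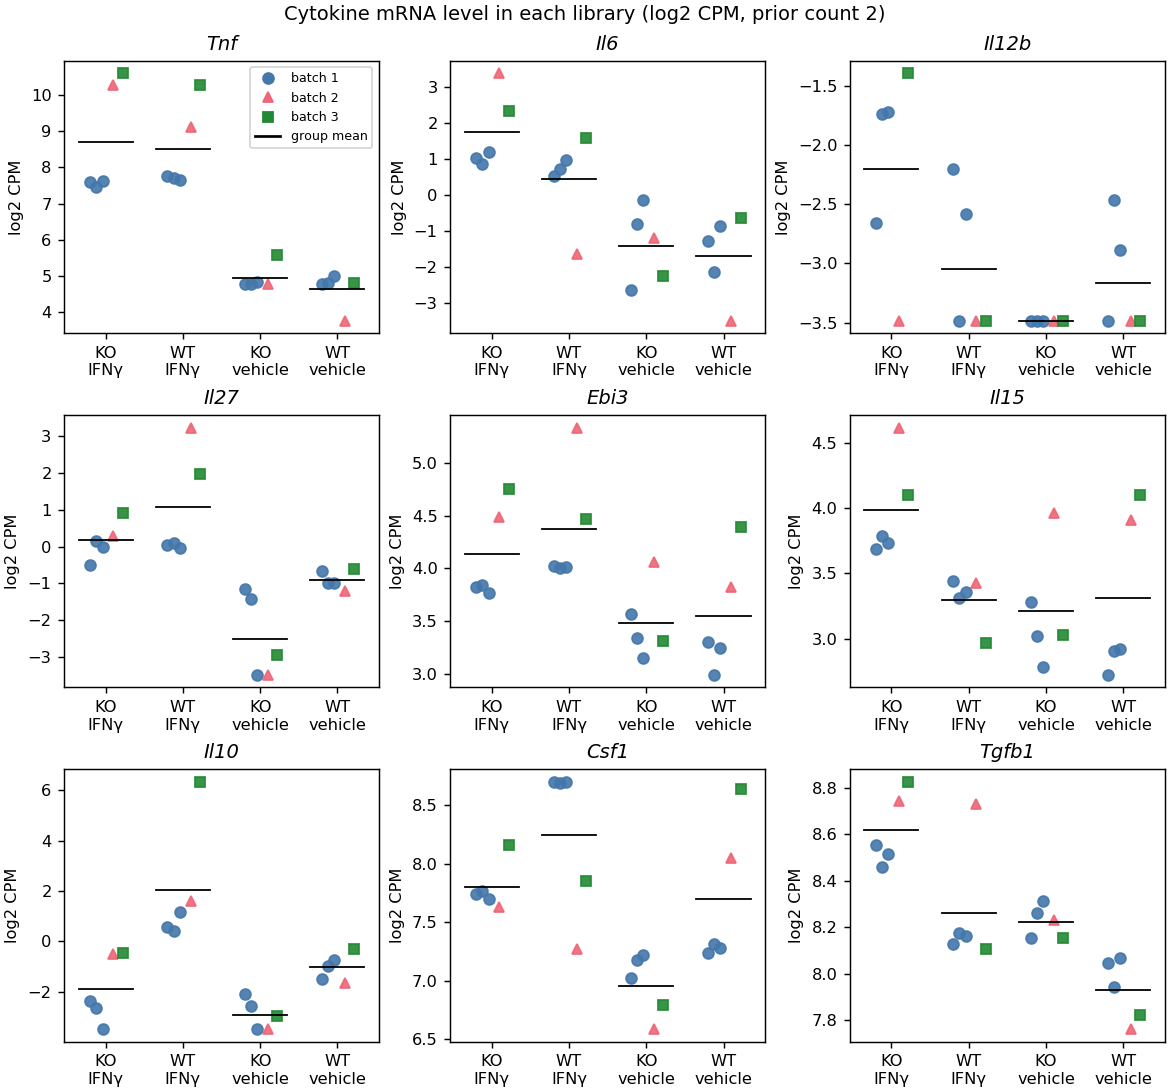
Level of each cytokine gene in every library (y axis, log2 CPM with a prior count of 2; columns, the 4 groups; marker shape and colour, batch; black line, group mean; n = 5 per group). A library with no read sits at the lowest line of its panel, as in all 5 knockout vehicle libraries for Il12b. Tnf with IFNγ lies above vehicle in every library of both lines, while Csf1 in wild-type cells moves up in batch 1 and down in batches 2 and 3.

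Tnf, the archetypal macrophage cytokine, which signals through 2 receptors to NF-κB and cell death pathways, showed the largest fitted rise of the members in both lines. In knockout cells it stood at 195, 176.5 and 197 CPM with IFNγ in batch 1, at 1246 CPM in batch 2 and at 1556 CPM in batch 3, against 27.4, 27.4, 28.3, 27.4 and 47.4 CPM with vehicle. Wild-type cells held 215, 209 and 202 CPM with IFNγ in batch 1, 559 CPM in batch 2 and 1236 CPM in batch 3, against 27.3, 27.7, 31.6, 13.35 and 27.9 CPM with vehicle. Every IFNγ library thus lay well above every vehicle library, and the IFNγ libraries of batches 2 and 3 lay well above those of batch 1. The fitted rise was 15.2-fold in knockout cells (3.92 ± 0.49 log2, edgeR adjusted p = 4.7e-06) and 12.8-fold in wild-type cells (3.68 ± 0.48 log2, edgeR adjusted p = 2.9e-06). Within batches 1, 2 and 3 the rise was 2.77, 5.50 and 5.04 log2 in knockout cells and 2.86, 5.38 and 5.46 log2 in wild-type cells. In batch 1, where the rise was already present, Malat1 stood at 56.0 to 62.7 CPM in knockout and 355.5 to 386 CPM in wild-type cells with IFNγ. The larger rises were those of the libraries with more Malat1, whose part in them was not tested. The lines did not differ in Tnf by a call: the difference was 0.38 ± 0.43 log2 under IFNγ (adjusted p = 0.51) and 0.14 ± 0.43 log2 under vehicle (adjusted p = 0.85). In batch 1 alone the 3 knockout libraries under IFNγ were lower, at −0.12 ± 0.05 log2 (edgeR adjusted p = 0.045). Here and below, p-values of batch 1 alone describe only the spread within that batch.

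Il6, whose product acts through the shared receptor chain gp130 and drives acute phase and T cell responses, was scarce in all groups but rose with IFNγ. It stood at 1.96, 1.72, 2.18, 10.3 and 4.94 CPM in knockout cells with IFNγ, in the order of replicates 1 to 5, against 0.0721, 0.482, 0.818, 0.350 and 0.121 CPM in knockout vehicle cells. Wild-type cells held 1.36, 1.57, 1.86, 0.234 and 2.91 CPM with IFNγ, against 0.323, 0.138, 0.459, 0 and 0.560 CPM with vehicle. Knockout groups did not overlap, while the batch 2 library of wild-type cells with IFNγ, with 3 reads, lay within the range of the vehicle libraries. Il6 rose 10.3-fold in knockout cells (3.37 ± 0.74 log2, edgeR adjusted p = 0.0012) and 5.30-fold in wild-type cells (2.41 ± 0.75 log2, adjusted p = 0.0092). The rise in batch 1 was 2.22 log2 in knockout cells and 2.17 log2 in wild-type cells. In batch 2 it was 4.56 log2 in knockout cells and 1.86 log2 in wild-type cells. The difference between the lines under IFNγ, 1.31 ± 0.69 log2, was not called (adjusted p = 0.14), and it ran from 0.28 log2 in batch 1 to 5.00 log2 in batch 2.

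Il12b, which encodes the p40 chain of IL-12 and IL-23, was at the limit of detection. The reads summed to 18 over the 5 libraries of knockout cells with IFNγ, 5 in wild-type cells with IFNγ, 0 in knockout vehicle cells and 3 in wild-type vehicle cells. Libraries held at most 6 reads each. A floor of 3 counts over the knockout vehicle group amounts to 0.0237 CPM. The pooled level in knockout cells with IFNγ, 0.155 CPM, was 6.55-fold that floor. This ratio leaves out the counting error of the 18 reads and is no lower limit. The batch 2 library of knockout cells with IFNγ held 0 reads. A two-sided exact permutation test of log2 CPM gave p = 0.048 for that comparison and 0.19 after adjustment over the 4 comparisons of Il12b, so it did not pass. The permutation test treats libraries of different batches as exchangeable and takes no account of batch. Il23a, the partner chain of p40 in IL-23, passed the count filter but was called in none of the 5 comparisons.

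IL-27 is a dimer of the chains encoded by Il27 and Ebi3, and both messages rose with IFNγ in both lines. Il27 held 0.619 to 1.80 CPM in knockout cells with IFNγ against 0 to 0.361 CPM in knockout vehicle cells, and 0.890 to 9.27 CPM in wild-type cells with IFNγ against 0.345 to 0.560 CPM in wild-type vehicle cells. The highest wild-type values, 9.27 and 3.83 CPM, were those of batches 2 and 3, and batch 1 lay between 0.890 and 0.982 CPM. The fitted rise was 6.73-fold in knockout cells (2.75 ± 0.78 log2, edgeR adjusted p = 0.008) and 5.27-fold in wild-type cells (2.40 ± 0.73 log2, adjusted p = 0.0086). In batch 1 alone the wild-type rise was 1.03 log2 and was not called (edgeR adjusted p = 0.071), nor was it without the IFNγ libraries of batches 2 and 3 (0.74 log2, adjusted p = 0.28). Ebi3 was, per kilobase, the more abundant chain in all 4 groups. It held 13.5 to 26.8 CPM in knockout cells with IFNγ against 8.78 to 16.6 CPM in knockout vehicle cells. In wild-type cells Ebi3 held 15.9 to 40.4 CPM with IFNγ against 7.83 to 21.0 CPM with vehicle. Its ranges overlapped in both lines, as the batch 2 vehicle library of knockout cells and the batch 3 vehicle library of wild-type cells lay within the IFNγ ranges. Ebi3 rose by 0.63 ± 0.19 log2 in knockout cells (edgeR adjusted p = 0.01) and by 0.82 ± 0.19 log2 in wild-type cells (adjusted p = 0.00095). In batch 3 the wild-type change of Ebi3 was 0.07 log2, beside 0.84 and 1.52 log2 in batches 1 and 2. Neither chain was called between the lines under either treatment. Il27 lies opposite Apobr on the genome and Ebi3 opposite the antisense transcript Gm16712. The strand setting of the counting is not given, so reads of these pairs could have been assigned either way. Apobr held 25.5 to 51.5 CPM in knockout cells with IFNγ, 54.1 to 97.7 CPM in wild-type cells with IFNγ, 43.9 to 47.9 CPM in knockout vehicle cells and 41.1 to 53.3 CPM in wild-type vehicle cells. Gm16712 held 0.183 to 6.23 CPM over all 20 libraries.

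Il15, which sustains natural killer and memory T cells and is presented to them by its receptor chain, rose with IFNγ in knockout cells, and under IFNγ it was higher in knockout than in wild-type cells. It stood at 12.8, 13.7, 13.2, 24.4 and 17.0 CPM in knockout cells with IFNγ, against 9.63, 8.03, 6.80, 15.5 and 8.08 CPM in knockout vehicle cells. Wild-type cells held 10.8, 9.82, 10.1, 10.7 and 7.73 CPM with IFNγ, against 6.51, 7.41, 7.48, 14.9 and 17.1 CPM with vehicle. Every knockout IFNγ library lay above every wild-type IFNγ library. The wild-type vehicle libraries of batches 2 and 3 lay above all the wild-type IFNγ libraries, while those of batch 1 lay below the IFNγ libraries of their own batch. The rise in knockout cells was 0.75 ± 0.21 log2 (edgeR adjusted p = 0.0071), and 0.61 log2 without a call on plain library totals (adjusted p = 0.088). In wild-type cells the fitted change was −0.02 ± 0.22 log2 (adjusted p = 0.95), made of 0.52, −0.48 and −1.13 log2 in batches 1, 2 and 3. In batch 1 alone the wild-type rise of 0.51 log2 was called (adjusted p = 0.00093). Under IFNγ the knockout exceeded the wild type by 0.64 ± 0.21 log2 (adjusted p = 0.02), with 0.37, 1.19 and 1.13 log2 in batches 1, 2 and 3. That call was lost without wild-type IFNγ replicate 4 (0.53 log2, adjusted p = 0.056) or replicate 5 (0.51 log2, adjusted p = 0.066), and without all IFNγ libraries of batches 2 and 3 (0.39 log2, adjusted p = 0.088). In batch 1 alone the difference was also 0.39 log2 and was called (adjusted p = 0.005). The responses of the lines differed by 0.77 ± 0.30 log2, which did not pass after adjustment (unadjusted p = 0.0188, adjusted p = 0.13).

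**Figure D3:**
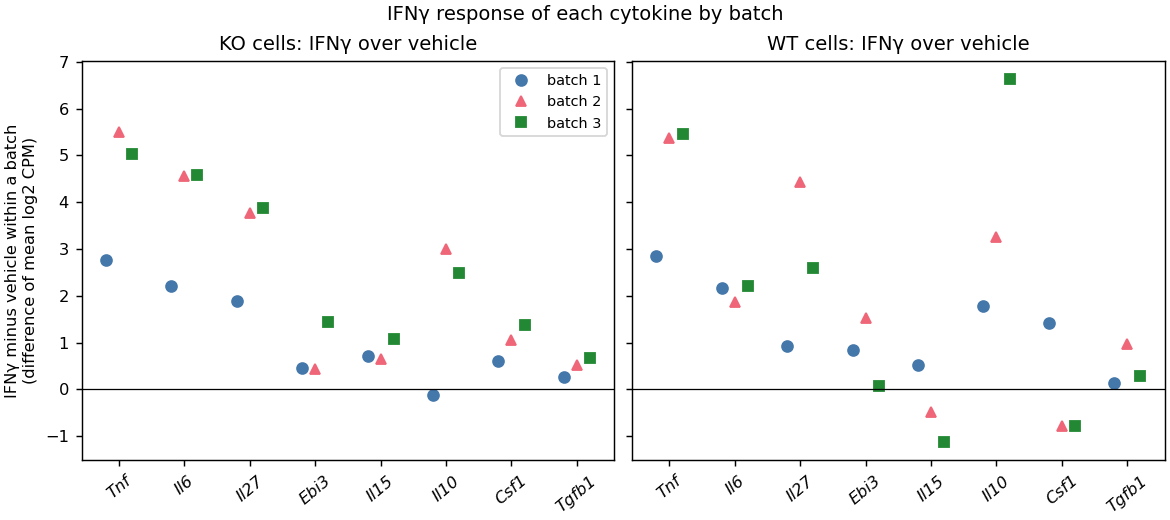
IFNγ response of the 8 tested cytokine genes within each batch (y axis, mean log2 CPM with IFNγ minus mean log2 CPM with vehicle; left panel, knockout cells; right panel, wild-type cells; batch 1 has 3 libraries per group, batches 2 and 3 have 1). In wild-type cells Il15 and Csf1 are above 0 in batch 1 and below 0 in batches 2 and 3, and Il10 ranges from 1.79 to 6.63 log2.

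Il10, the cytokine that restrains macrophage activation, had the largest fitted difference between the lines of the tested members, under either treatment. With IFNγ it stood at 0.103, 0.0703, 0, 0.623 and 0.639 CPM in knockout cells, against 1.40, 1.24, 2.13, 2.96 and 81.1 CPM in wild-type cells. With vehicle it stood at 0.144, 0.0803, 0, 0 and 0.0404 CPM in knockout cells, against 0.269, 0.414, 0.505, 0.230 and 0.728 CPM in wild-type cells. For each treatment, all 5 knockout libraries were below all 5 wild-type ones. The batch 3 library of wild-type cells with IFNγ, with 1311 reads of Il10, stood far above the other 4, which had 33 to 55 reads. Under IFNγ Il10 was 25.4-fold lower in knockout cells (−4.67 ± 0.83 log2, edgeR adjusted p = 0.00019). The difference was −3.55, −2.10 and −6.80 log2 within batches 1, 2 and 3. Without the outlying library it was −3.26 ± 0.72 log2 and was still called (adjusted p = 0.0016). Under vehicle Il10 was lower in knockout cells, at −3.25 ± 1.19 log2 (adjusted p = 0.049), on 7 reads over 5 knockout libraries and 42 over 5 wild-type libraries. That call lay at the threshold and was lost in 12 of 20 alternative settings, in which the value ran from −4.31 to −1.97 log2 and adjusted p up to 0.23. Within batches 1, 2 and 3 it was −1.64, −1.84 and −2.66 log2. Among the settings that lost the call, the smallest difference, −1.97 log2, was the value without knockout replicate 5. The settings that lost the call included leaving out wild-type replicate 1, 2, 3 or 4 or knockout replicate 3, 4 or 5. IFNγ raised Il10 in wild-type cells by 3.55 ± 0.79 log2 (adjusted p = 0.00075), and by 2.34 ± 0.67 log2 without the batch 3 IFNγ library (adjusted p = 0.0065). In knockout cells the change was 2.14 ± 1.26 log2 and was not called (adjusted p = 0.18), with −0.12, 3.00 and 2.49 log2 in the 3 batches. It was called with no filter and in batches 2 and 3 alone, and over all alternative settings its value ran from −0.31 to 5.13 log2. The difference between the 2 responses, −1.41 ± 1.84 log2, was not called either (adjusted p = 0.71), and its standard error leaves a wide range of differences possible.

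Csf1, the growth factor on which microglia depend and the ligand of Csf1r, moved in the same direction in the 3 batches of knockout cells and in opposite directions in those of wild-type cells. Its level was 213.5, 218, 208, 199 and 287 CPM in knockout cells with IFNγ, against 130, 144, 149, 95.9 and 111 CPM in knockout vehicle cells. In wild-type cells it was 417, 413, 415, 154 and 232 CPM with IFNγ, against 150.4, 159, 155, 264 and 399 CPM with vehicle. All knockout IFNγ libraries lay above all knockout vehicle libraries. In wild-type cells the batch 1 libraries with IFNγ lay far above those with vehicle, whereas in batches 2 and 3 the library with IFNγ lay below the one with vehicle. Csf1 rose by 0.83 ± 0.27 log2 in knockout cells (edgeR adjusted p = 0.017), a call lost without knockout vehicle replicate 5 (0.71 log2, adjusted p = 0.062) and with plain library totals (0.69 log2, adjusted p = 0.1). The pooled change in wild-type cells, 0.53 ± 0.28 log2, was not called (adjusted p = 0.11), and within batches 1, 2 and 3 it was 1.42, −0.78 and −0.79 log2. Fitted by batch, it was a rise of 1.41 log2 in batch 1 (adjusted p = 1.2e-19) and a fall, −0.76 log2, in batches 2 and 3 (adjusted p = 0.03). The p-value of batch 1 describes only the spread within that batch. Leaving out any 1 of the 4 wild-type libraries of batches 2 and 3 turned the pooled value into a call, at 0.73 to 0.79 log2. Under vehicle Csf1 was lower in knockout cells, at −0.83 ± 0.27 log2 (adjusted p = 0.027), with no overlap between the groups and −0.14, −1.46 and −1.85 log2 in the 3 batches. That call was lost when any 1 vehicle library of batch 2 or 3 was left out (−0.56 to −0.79 log2, adjusted p = 0.064 to 0.12) and with plain library totals (−0.84 log2, adjusted p = 0.081). Under IFNγ the difference was −0.53 ± 0.27 log2 (adjusted p = 0.13), made of −0.96, 0.37 and 0.31 log2. The difference in response between the lines also changed sign, from −0.82 log2 in batch 1 to 1.83 and 2.16 log2 in batches 2 and 3. The Malat1 level moved with the batches of the IFNγ libraries. The Csf1 level of the wild-type vehicle libraries also differed by batch. Their Malat1 level was 84.0, 70.2 and 64.4 CPM in batch 1, 166 CPM in batch 2 and 96.2 CPM in batch 3. The part of library quality in these differences was not tested.

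Tgfb1, which restrains microglia and is made as a latent precursor, was per kilobase among the 3 most abundant members and changed by less than 0.5 log2 in every fitted comparison. It held 376, 352, 366, 428 and 454 CPM in knockout cells with IFNγ, against 285, 306, 318, 300.2 and 284.5 CPM in knockout vehicle cells. Wild-type cells held 279.8, 289, 287, 425 and 276 CPM with IFNγ, against 264.5, 246, 268, 217 and 226.5 CPM with vehicle. On TMM-scaled CPM, each IFNγ group lay wholly above the vehicle group of its line. The batch 2 library was then the outlying one among wild-type cells with IFNγ. The wild-type part rested on TMM factors of 0.6346 and 0.7643 in the IFNγ libraries of batches 2 and 3. On plain totals the batch 3 library (4460 of 21160361 reads) lay below wild-type vehicle replicate 1 (4918 of 18037436 reads). The batch 2 library (5452 of 20231230 reads) lay below wild-type IFNγ replicate 1 (6580 of 22545863 reads). The rise was 0.40 ± 0.12 log2 in knockout cells (edgeR adjusted p = 0.011) and 0.33 ± 0.12 log2 in wild-type cells (adjusted p = 0.024). With plain library totals in place of TMM scaling, the wild-type change was 0.10 log2 and was not called (adjusted p = 0.38). Leaving out wild-type IFNγ replicate 4 (0.20 log2, adjusted p = 0.091) or wild-type vehicle replicate 4 (0.24 log2, adjusted p = 0.1) or 5 (0.31 log2, adjusted p = 0.055) also ended the wild-type call. Under IFNγ Tgfb1 was higher in knockout cells by 0.35 ± 0.12 log2 (adjusted p = 0.026), with overlapping groups and 0.35, 0.01 and 0.72 log2 in the 3 batches. This call was lost when knockout replicate 5 or any wild-type IFNγ replicate but the fourth was left out (0.27 to 0.33 log2, adjusted p = 0.059 to 0.083). Under vehicle every knockout library lay above every wild-type library, but the difference of 0.29 ± 0.12 log2 was not called (adjusted p = 0.087).

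**Figure D4:**
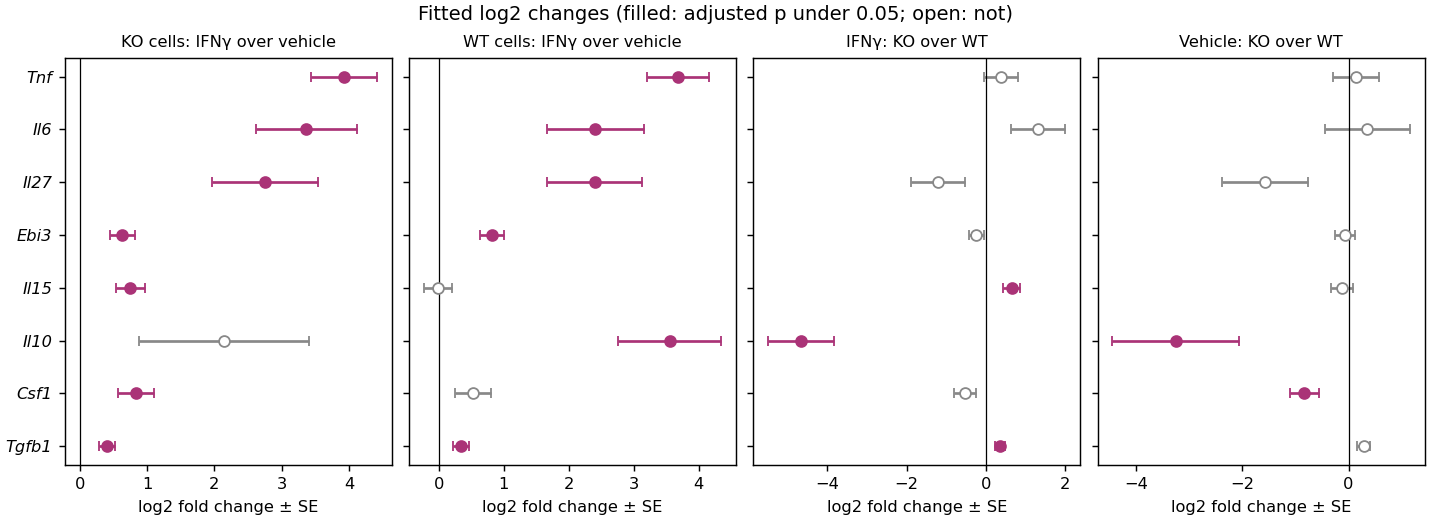
Fitted log2 fold change with its SE for the 8 tested cytokine genes in the 4 comparisons (x axis, log2 fold change; bars, SE of the edgeR fit; filled points, adjusted p under 0.05; open points, not called; n = 5 libraries per group). Both IFNγ panels lie to the right of 0 apart from Il15 in wild-type cells, and Il10 is the member farthest below 0 in both comparisons of the lines.

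Counted per kilobase of annotated exon, the order of the messages differed with treatment. In knockout cells with IFNγ, Tnf led with 411 ± 410 CPM per kb, followed by Tgfb1 (78.4 ± 8.69 CPM per kb), Csf1 (42.6 ± 6.69) and Ebi3 (15.8 ± 5.24). In wild-type cells with IFNγ, Tnf led with 296 ± 273 CPM per kb, Csf1 and Tgfb1 followed at 61.7 ± 23.6 and 61.7 ± 12.6 CPM per kb, which did not differ beyond their spread, and Ebi3 held 19.2 ± 9.13. Under vehicle Tgfb1 came first, at 59.2 ± 2.83 CPM per kb in knockout cells and 48.5 ± 4.48 CPM per kb in wild-type cells. Csf1 came second at 23.8 ± 4.26 CPM per kb in knockout and 42.7 ± 20.5 CPM per kb in wild-type vehicle cells, and Tnf came next at 19.3 ± 5.38 and 15.6 ± 4.29 CPM per kb in those groups (SD, n = 5 each). The ranges of Csf1 and Tnf overlapped in knockout vehicle cells, and those of Tgfb1 and Csf1 in wild-type vehicle cells. Il15 was below Ebi3 in all 4 groups, and Il6, Il27 and Il12b each averaged under 3.2 CPM per kb in every group.

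The receptors of these cytokines also moved mostly upward with IFNγ. Of 13 tested receptor genes of 17 listed, 7 rose and 1 fell in knockout cells, and 9 rose and 2 fell in wild-type cells. The median change of the receptor genes was 0.67 log2 in knockout cells and 0.90 log2 in wild-type cells. Il12rb1, the receptor chain that binds the p40 subunit, rose most clearly, by 7.57 ± 0.38 log2 in knockout cells (edgeR adjusted p = 2.2e-11) and 5.85 ± 0.35 log2 in wild-type cells (adjusted p = 1.4e-10). Tnfrsf1a, the TNF receptor with a death domain, rose by 1.18 ± 0.13 log2 in knockout cells and 1.43 ± 0.13 log2 in wild-type cells. Il15ra, which presents IL-15 to neighbouring cells, rose by 2.02 ± 0.29 log2 in knockout cells and 2.39 ± 0.30 log2 in wild-type cells. Il6ra, the specific IL-6 receptor chain, fell in knockout cells (−0.72 ± 0.21 log2) and was not called in wild-type cells (−0.48 ± 0.21 log2, edgeR adjusted p = 0.052). Csf1r and Tgfbr2, receptors of CSF-1 and TGF-β, fell in wild-type cells, at −0.53 ± 0.17 and −0.51 ± 0.18 log2, and the value of Csf1r was 0.031 log2 in batches 2 and 3 alone. The Tgfbr2 call was lost without wild-type vehicle replicate 4 or 5 or wild-type IFNγ replicate 4 (−0.43 to −0.38 log2, adjusted p = 0.061 to 0.081). Between the lines, 5 receptors were lower and 0 higher in knockout cells under IFNγ, and 5 were lower and 2 higher under vehicle. Without the IFNγ libraries of batches 2 and 3, 9 receptors were called under IFNγ. Of all 13755 tested genes, 4251 were then higher and 3908 lower. Tnfrsf1b, the other TNF receptor, was lower in knockout cells, at −1.64 ± 0.16 log2 under IFNγ (adjusted p = 2.5e-07) and −0.92 ± 0.16 log2 under vehicle (adjusted p = 0.00023). Tgfbr2 was lower, at −0.89 ± 0.18 and −1.13 ± 0.18 log2, and Il10ra, the ligand-binding chain of the IL-10 receptor, was at −1.01 ± 0.22 and −1.17 ± 0.23 log2 in those comparisons. Tgfbr1 and gp130 (Il6st) were higher in knockout cells under vehicle, by 0.80 ± 0.21 and 0.48 ± 0.14 log2.

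Many other cytokines of the same families rose with IFNγ, while neither partner chain of p40 was called. Il12a had no read in any library, and Il23a was at 0.79 log2 in knockout cells (edgeR adjusted p = 0.28) and 0.87 log2 in wild-type cells (adjusted p = 0.24). Of 16 tested genes of 25 listed, 10 rose and 0 fell in knockout cells, and 10 rose and 0 fell in wild-type cells, with median changes of 1.67 and 1.52 log2. Osm, which encodes oncostatin M of the IL-6 family, rose by 1.68 ± 0.16 log2 in knockout cells (edgeR adjusted p = 1.6e-07) and 2.61 ± 0.17 log2 in wild-type cells (adjusted p = 4.2e-10). Lif, of the same family, rose by 3.23 ± 0.43 log2 in knockout cells and 1.195 ± 0.376 log2 in wild-type cells. Tnfsf10, the death ligand TRAIL, rose by 1.87 ± 0.27 log2 in knockout cells and was not called in wild-type cells (−0.236 ± 0.262 log2). Clcf1, another gp130 cytokine, and Gdf15, a distant TGF-β relative, rose by 5.66 ± 0.62 and 4.82 ± 0.56 log2 in wild-type cells. In knockout cells Gdf15 averaged 115 CPM with IFNγ and 14.3 CPM with vehicle, and Clcf1 averaged 0.268 and 0.0242 CPM. Under IFNγ, 1 of these genes was higher and 5 were lower in knockout cells. Clcf1 was lower, at −6.17 ± 0.62 log2 (adjusted p = 2.7e-07), Tgfb2 at −5.30 ± 0.60 log2 (adjusted p = 1e-06) and Gdf15 at −2.14 ± 0.49 log2, while Tnfsf10 was higher by 1.04 ± 0.26 log2. Over the IFNγ libraries Clcf1 held 24 reads in knockout and 1351 in wild-type cells, and Tgfb2 held 9 and 382. Under vehicle, 2 genes of this list were higher and 5 lower in knockout cells, where 12.5% and 14.8% of all tested genes were. Tgfb2 was lower, at −5.26 ± 0.55 log2 (adjusted p = 4.7e-07), Il34, the other ligand of Csf1r, at −3.47 ± 0.84 log2 and Lif at −2.07 ± 0.43 log2. Over the vehicle libraries Tgfb2 held 17 reads in knockout and 523 in wild-type cells, Il34 held 13 and 121, and Lif 40 and 150. Osm and Ltb, which encodes lymphotoxin beta, were higher by 0.58 ± 0.16 and 1.43 ± 0.45 log2. The Ltb call was lost without wild-type replicate 1, 2 or 3 or knockout replicate 5 (1.11 to 1.33 log2, adjusted p = 0.055 to 0.1).

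**Figure D5:**
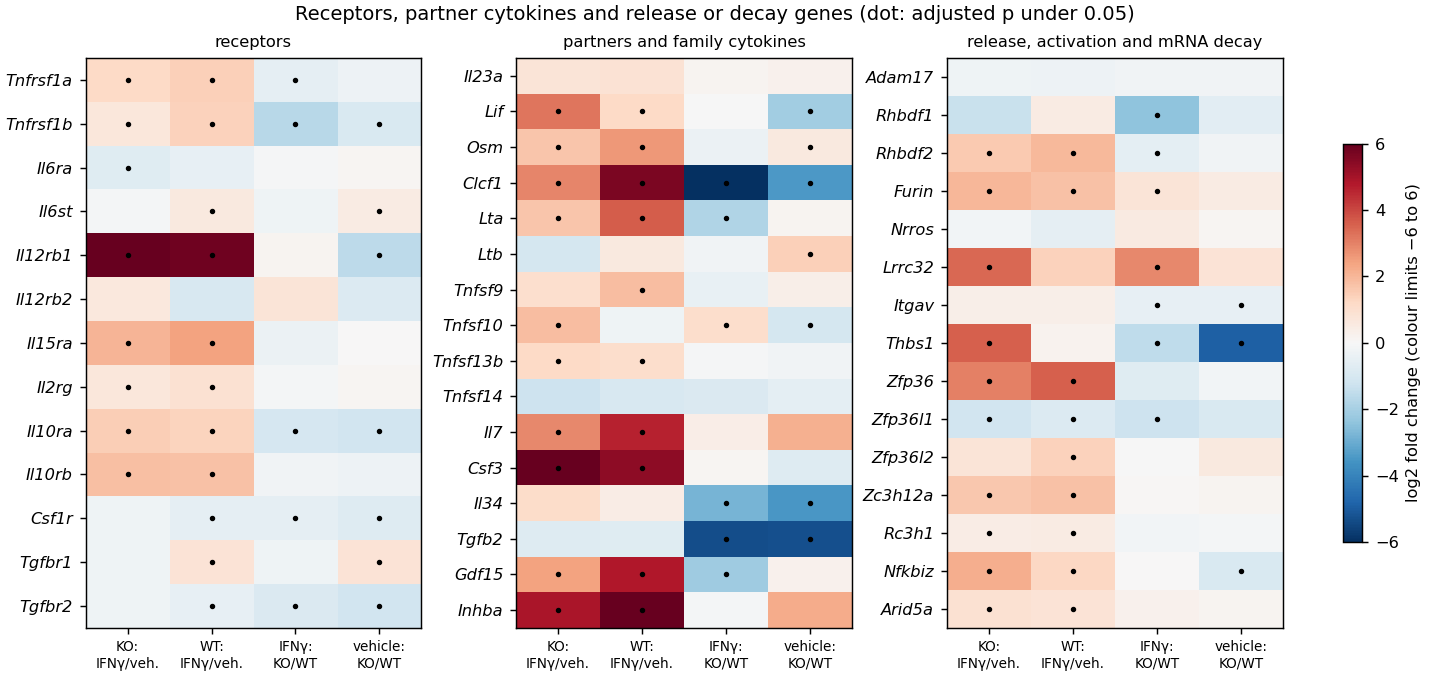
Log2 fold change (colour, limits −6 to 6, so that larger changes share the darkest tone) of the tested receptor genes (left), partner and family cytokines (middle) and release, activation and mRNA decay genes (right) in the 4 comparisons (columns); a dot marks an adjusted p under 0.05. Il12rb1 is dark red in both IFNγ columns, and Tgfb2 is dark blue in both columns that compare the lines.

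Genes that release, activate or destabilize these cytokines rose more often than they fell with IFNγ. Of 15 tested genes of 18 listed, 9 rose and 1 fell in knockout cells, and 8 rose and 1 fell in wild-type cells. Rhbdf2, which encodes iRhom2, the partner that brings the TNF-shedding protease ADAM17 to the surface, rose by 1.59 ± 0.15 log2 in knockout cells (edgeR adjusted p = 7.9e-08) and 1.97 ± 0.15 log2 in wild-type cells (adjusted p = 2.9e-09). Furin, a protease that processes the TGF-β1 precursor, rose by 2.00 ± 0.22 and 1.74 ± 0.22 log2 in knockout and wild-type cells. Zfp36, which encodes tristetraprolin and marks Tnf mRNA for decay, rose by 3.60 ± 0.53 log2 in wild-type cells (adjusted p = 1.2e-05). In knockout cells Zfp36 averaged 310 CPM with IFNγ and 26.2 CPM with vehicle. Nfkbiz, an inducible nuclear cofactor for Il6, rose by 2.18 ± 0.33 log2 in knockout cells and 1.23 ± 0.31 log2 in wild-type cells. Zfp36l1, a paralog of Zfp36, fell, at −1.13 ± 0.34 log2 in knockout and −0.80 ± 0.34 log2 in wild-type cells. The wild-type call lay at the threshold (adjusted p = 0.049) and was lost in 11 of 20 alternative settings, in which the value ran from −0.83 to −0.28 log2. Among these were 7 single libraries left out, wild-type vehicle replicates 1, 2, 4 and 5 and wild-type IFNγ replicates 1, 2 and 3 (−0.83 to −0.62 log2). Under IFNγ, 2 of these genes were higher and 5 lower in knockout cells, among them Furin (0.75 ± 0.22 log2 higher) and Lrrc32, a docking protein for latent TGF-β (2.90 ± 0.88 log2 higher). Rhbdf2 (−0.58 ± 0.14 log2), Zfp36l1 (−1.23 ± 0.36 log2) and the integrin gene Itgav (−0.49 ± 0.15 log2) were lower. The Lrrc32 call was lost without knockout IFNγ replicate 4 or 5 (2.30 and 2.24 log2), and the Itgav call without knockout IFNγ replicate 4 or wild-type IFNγ replicate 5 (−0.38 and −0.44 log2). Without all IFNγ libraries of batches 2 and 3, 11 genes of the list were called, Furin (0.35 log2) and Zfp36l1 (−0.17 log2) not among them. Of all 13755 tested genes, 4251 were then higher and 3908 lower. Under vehicle 3 genes of the list were lower and 0 higher, where 14.8% and 12.5% of all tested genes were. The 3 were Thbs1, whose product can activate latent TGF-β, at −4.89 ± 0.66 log2, Itgav at −0.49 ± 0.15 log2 and Nfkbiz at −0.94 ± 0.32 log2. Thbs1 held 10 reads over the knockout vehicle libraries and 225 over the wild-type ones. The Itgav call was lost without wild-type replicate 2 or 4 or knockout replicate 4 or 5 (−0.46 to −0.33 log2), and the Nfkbiz call without wild-type replicate 1 or 2 or knockout replicate 2, 4 or 5 (−0.94 to −0.74 log2). The count was 1 without wild-type replicate 2 or knockout replicate 4, and 9 without the IFNγ libraries of batches 2 and 3. In that last setting, 3827 of all 13755 tested genes were higher and 3672 lower.

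The IFNγ response itself differed between the lines for 8 genes of these 3 lists, which held 13, 16 and 15 tested genes. Of all tested genes, 6.50% differed. Il12rb1 (1.72 ± 0.46 log2), Lif (2.03 ± 0.57 log2), Tnfsf10 (2.11 ± 0.37 log2) and Thbs1 (3.37 ± 0.82 log2) had the larger log2 change in knockout cells. Il6st (−0.72 ± 0.19 log2), Tgfbr1 (−1.08 ± 0.30 log2), Osm (−0.92 ± 0.23 log2) and Gdf15 (−2.41 ± 0.68 log2) had the smaller one. Thbs1 averaged 0.0782 CPM with vehicle and 1.29 CPM with IFNγ in knockout cells, against 2.34 and 3.16 CPM in wild-type cells. The edgeR adjusted p-values ran from 0.0022 for Tnfsf10 to 0.04 for Gdf15, and the calls of Osm, Tnfsf10 and Thbs1 held in 28 of 30 alternative settings each, those of the other 5 genes in 11 to 17. Single libraries of at least 3 groups, left out in turn, ended each of those 5 calls. Over the settings the values ran from −0.94 to −0.39 log2 for Il6st, 1.28 to 2.36 log2 for Il12rb1, −1.41 to −0.71 log2 for Tgfbr1, 0.74 to 3.96 log2 for Lif and −3.02 to −1.76 log2 for Gdf15.

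The genes whose profile over the 20 libraries was most like that of a member were found by the root mean square difference of log2 CPM, each gene centred on its own mean. The 3 nearest to Tnf were Gm43914 (0.55 log2), Zfp36 (0.55 log2) and Procr (0.59 log2), where Tnf itself varied by 2.13 log2 around its mean, the root mean square given next for each member as its own spread. The genes nearest to Il27 were Cd86, Itgb2 and H2-DMb1 (0.65 to 0.70 log2, own spread 1.59), and those nearest to Ebi3 were Creld1, Hexa and Sirt2 (0.18 to 0.20 log2, own spread 0.58). Il6 was nearest to Naip3-ps1, Gm13571 and Phlda1 (0.84 to 0.88 log2, own spread 1.72), and Il10 to Mfge8, Pax4 and Fcrlb (1.12 to 1.14 log2, own spread 2.26). Csf1 was nearest to Susd1, Tbc1d12 and Tmcc1 (0.33 to 0.35 log2, own spread 0.63), Il15 to Lcorl, Mctp1 and 0610038B21Rik (0.26 to 0.27 log2, own spread 0.51) and Tgfb1 to Foxj3, Usp8 and Senp2 (0.13 to 0.14 log2, own spread 0.29). All points share the same libraries and batches, and no test was made.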

How the data were processed

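The deposited table held raw read counts per gene ID for 20 libraries. Per the submitters' processing notes, FastQC, Trim Galore, STAR, DESeq2 and the build GRCm39 were used; not given in the sources used here are the counter, its strand setting, the annotation release and tool versions. Each count column matched one library. Symbols for 51948 of 56941 IDs (91.2%) and exon lengths came from GENCODE vM21 (GRCm38). IDs lacking a symbol (4993, with 0.482% of the counts) were tested too.

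Counts were scaled by TMM and filtered with filterByExpr in edgeR 4.0.16 (R 4.3.3), which left 13755 genes and 8 of 9 members. One quasi-likelihood fit took group and batch (14 residual degrees of freedom). P-values were adjusted by Benjamini-Hochberg over all tested genes within each of 5 comparisons. Levels are CPM on TMM-scaled library sizes. The TMM factors of the IFNγ libraries of batches 2 and 3 were 0.892 and 0.8795 in knockout cells and 0.6346 and 0.7643 in wild-type cells. Those of the other libraries ran from 1.01 to 1.123. Differences within a batch, and the plotted levels, use log2 CPM with a prior count of 2. Floors of 3 counts cover counting error only.

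The members and gene lists were chosen with earlier results of these data known. Every member is named, and from each other list up to 3 called genes each way with the smallest p. Genes of interest outside that rule are Rgs10 (label check), Malat1, Il12a, Il23a, Apobr, Gm16712 and the named cell type markers, which were named after their values were seen. No replicates were copies (chi-squared per degree of freedom 3.69 to 14.4 within a batch). Between batches it was 15.2 to 397, a spread that p-values of batch 1 alone do not include. The procedure was tested on simulated data. Alternatives were RLE size factors, plain library totals, no filter, DESeq2 1.42.0, limma-voom (limma 3.58.1), no batch term, a replicate block, batch 1 alone, batches 2 and 3 alone and each library left out. Leaving out the IFNγ libraries of batches 2 and 3 was added after seeing the data.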

Additional observations from a re-analysis of the deposited data

Results flagged for a closer look

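In 6 of the 36 sets of 5 libraries formed by the 9 members and 4 groups, the highest or lowest library stood apart by Dixon's criterion. Independent values of a single normal spread meet it in about 1 in 20 sets. That rate does not hold here, as sets share libraries and each held 3 libraries of batch 1. All 6 were libraries of batch 2 or 3, which this layout itself favours. Il10 was at 81.06 CPM in the batch 3 library of wild-type cells with IFNγ, against 2.96 CPM in the next. Tnf was at 47.35 CPM in the batch 3 library of knockout vehicle cells, against 28.3 CPM in the next, and at 13.35 CPM, the lowest, in the batch 2 library of wild-type vehicle cells. Ebi3 at 40.42 CPM and Tgfb1 at 424.6 CPM were highest in the same library, wild-type cells with IFNγ of batch 2, against 22.1 and 289 CPM in the next. The TMM factor of that library was 0.6346, and on plain totals it did not hold the most Tgfb1 of its group. Csf1 was at 286.8 CPM in the batch 3 library of knockout cells with IFNγ, against 218 CPM in the next.

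No member's IFNγ response differed between the lines by a call (6.50% of all tested genes did). It differed for 8 genes of the receptor, partner and release lists, given as knockout minus wild type. The differences were 1.72 log2 for Il12rb1, 2.03 log2 for Lif, 2.11 log2 for Tnfsf10 and 3.37 log2 for Thbs1. They were −0.72 log2 for Il6st, −1.08 log2 for Tgfbr1, −0.92 log2 for Osm and −2.41 log2 for Gdf15.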

How the results depend on the processing

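Of 880 alternative values for the 40 member results, 805 kept their direction and side of the threshold, 49 lost a call, 22 gained one and 4 changed sign where either value was a call. The rise of Tnf and the deficit of Il10 in knockout cells under IFNγ held in every setting run, at adjusted p of 9.1e-05 or less for Tnf and 0.0042 or less for Il10. The sign changes were Il15 in wild-type cells with IFNγ (0.51 log2 in batch 1 alone), Csf1 there (−0.76 log2 in batches 2 and 3 alone), Tnf between the lines under IFNγ (−0.12 log2 in batch 1 alone) and the response difference of Csf1 (−0.79 log2 in batch 1 alone). Of the list genes, Csf1r in wild-type cells with IFNγ was at 0.031 log2 in batches 2 and 3 alone. The cause was not tested, beyond the fewer samples of those fits.

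The number of members called under vehicle between the lines, 2, was 1 with plain library totals (Tgfb1, higher), 1 with no batch term, 1 with the replicate block (Csf1), 1 in batches 2 and 3 alone and 4 without the IFNγ libraries of batches 2 and 3, and 0 to 2 with single libraries left out. Under IFNγ, 3 became 1 with no batch term, 5 in batch 1 alone and 1 in batches 2 and 3 alone. For the difference in response, 0 became 2 in batch 1 alone and 1 in batches 2 and 3 alone. The calls over all 13755 tested genes moved too. Batch 1 alone called 4892 higher and 4591 lower under IFNγ, and 4075 and 3004 for the difference in response. In batches 2 and 3 alone these were 918 and 1014, and 102 and 17. Without the IFNγ libraries of batches 2 and 3, 3827 genes were higher and 3672 lower under vehicle. Member counts for the IFNγ responses stayed within 1.5 times, and the replicate block moved no other member count. Replicate numbers did not pair the libraries: deviations of same-numbered batch 1 libraries correlated at −0.04 to 0.04, and 2 of 12 correlated best with their own number. Of 56 results for list genes, 28 kept their call in every setting. Plain library totals moved the median of all genes with IFNγ to −0.16 log2 in knockout and −0.21 log2 in wild-type cells. The called genes then split into 2116 higher and 3378 lower in knockout cells and 2823 higher and 4875 lower in wild-type cells. Depth limited Il12b, Il6, Il27 and Il10, whose libraries held 0 to 19 reads under vehicle. It also limited Tgfb2, Il34, Thbs1 and Clcf1, of which the knockout vehicle libraries held 0 to 8 reads each.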
